A study of Homo sapiens with 8 samples.

Results

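The endoplasmic reticulum (ER) is where secreted and membrane proteins enter the secretory route, fold, receive sugar chains and form disulfide bonds. Chaperones and disulfide enzymes assist that folding, and proteins that fail are pulled back into the cytosol and destroyed, a route called ER-associated degradation. When unfolded protein builds up, 3 sensors in the ER membrane (IRE1, PERK and ATF6) start the unfolded protein response, which raises transcription of chaperones and degradation factors. Hepatocytes make large amounts of secreted protein, so this machinery is abundant in liver cells. The genes described are 34 named members of it, given as a list of symbols and split by role into 4 sensors and transcription factors, 12 chaperones and folding factors, 7 disulfide enzymes and 11 degradation factors. Of the 34 genes, 33 had a value among the 18404 genes measured. PDIA3 had none, because its 2 probe sets also carry the symbol of its pseudogene PDIA3P1.

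The cells were HepG2, an established human liver tumour line. Cultures in 4 replicates had received 0.5 mM hydrogen peroxide (H2O2) for 60 minutes, a treatment used to bring on senescence, and 4 untreated cultures had received medium alone. Both groups were washed and kept for 5 days before the senescent phenotype was tested, and no separate time is given for the RNA. Each culture was read on 1 single-channel expression array, and the series describes the 4 of each condition as biological replicates. With 4 arrays a group, small differences are measured with limited precision.

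Values are log2 expression per gene as deposited. Differences are H2O2 minus untreated on that scale, ± the standard error of the fit, with n = 4 arrays per group. A gene was called higher or lower at an adjusted p under 0.05 in limma, a linear model fitted to all genes with Benjamini-Hochberg adjustment over all of them. The median over all probe sets of an array lay between 6.85 and 6.93, and a gene below that level is not shown to lie above background. Correlations between arrays over all probe sets were 0.990 to 0.996 within a group and 0.979 to 0.985 between groups. The hepatocyte markers checked had a value in 7 of 8 cases, each above the array median in both groups. Their mean over the 7 was 11.95 to 12.00 on untreated arrays and 11.45 to 11.78 on H2O2 arrays. Markers of other cells lay above the median in 2 of 6 cases for fibroblasts and stellate cells, 2 of 5 for leukocytes and 1 of 4 for endothelium in untreated cells, and in 2, 2 and 0 cases after H2O2. Of the 7, 5 were called lower (ALB, APOA1, TF, AFP and FGB) and TTR higher. The mean over the leukocyte markers was 6.32 to 6.36 on untreated and 6.42 to 6.51 on H2O2 arrays. In that list CD68 rose from 9.56 ± 0.082 to 10.36 ± 0.087 (SD, n = 4; 0.80 ± 0.071) and CD14 by 0.27 ± 0.064, while PTPRC, CD3E and MS4A1 did not pass and lay below the array median. The stromal markers averaged 6.17 to 6.27 untreated and 5.98 to 6.23 after H2O2, with PDGFRB lower by 1.15 on the log2 scale (-1.15 ± 0.088) and COL1A1 higher (0.41 ± 0.076). The endothelial markers averaged 6.06 to 6.20 and 6.05 to 6.25, with CDH5 lower (-0.25 ± 0.073). Markers of these lists thus moved with the treatment, and their part in the results below was not tested. In bulk RNA, fewer cells that express a gene and less of its RNA per cell cannot be told apart.

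Across the 33 measured members 6 were higher and 3 lower after H2O2, and 24 did not pass. Over all genes 19.2% were called higher and 14.8% lower, so the members' shares of 18.2% and 9.09% were not above the background. The 4 untreated and 4 H2O2 arrays did not overlap for 10 members, or 30.3%, beside 33.7% of all genes. Their median difference was -0.037, beside -0.022 over all genes, and no member differed by more than 0.55. By class the counts were as follows. Of the degradation factors 4 of 11 rose and 1 fell, with a median difference of 0.13. Among the disulfide enzymes 2 of 6 fell and 0 rose, and each of the 6 differences lay below 0, with a median of -0.18. Over all genes 10110 of 18404 differences lay below 0. Of the chaperones and folding factors 1 of 12 rose and 0 fell (median 0.027), and of the sensors and transcription factors 1 of 4 rose and 0 fell (median -0.14). These are counts over small classes, and the difference between classes was not tested. The members called higher numbered 3 without untreated replicate 1, 2 or 4 or H2O2 replicate 2 or 4, and the degradation factors among them then numbered 2. Without H2O2 replicate 3, 5 members were lower.

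**Figure D1:**
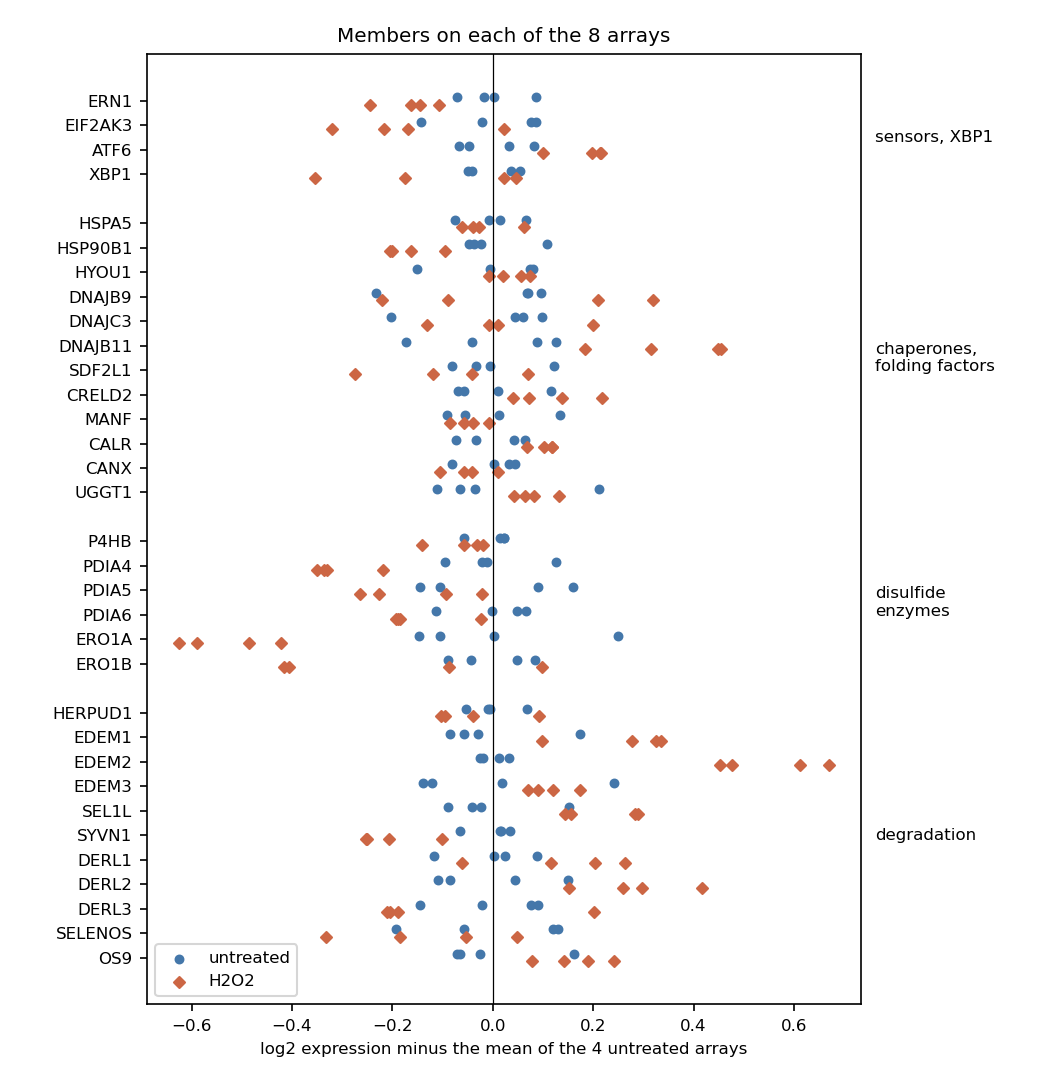
Each point is 1 array: log2 expression minus the mean of the 4 untreated arrays, for the 33 measured members in rows by class, circles for untreated and diamonds for H2O2. EDEM2 stands to the right of all untreated arrays and ERO1A to the left, while most chaperones overlap.

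The largest rise was that of EDEM2, which helps to trim mannose from misfolded glycoproteins and so marks them for degradation. In the order of the replicate numbers, used throughout, it read 9.81, 9.84, 9.78 and 9.78 on the log2 scale without treatment and 10.47, 10.41, 10.28 and 10.26 after H2O2. Every H2O2 array lay above every untreated array, a 1.47-fold rise (0.55 ± 0.069, limma adjusted p = 2.6e-05). The largest fall was that of ERO1A, the oxidase that recharges protein disulfide isomerase. It read 11.11, 10.96, 11.36 and 11.00 in untreated cells and 10.62, 10.69, 10.48 and 10.52 after H2O2. Again no arrays overlapped, and ERO1A was 1.44-fold lower (-0.53 ± 0.089, limma adjusted p = 0.000348). In size, these differences exceeded those of 89.9% and 89.1% of all genes.

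**Figure D2:**
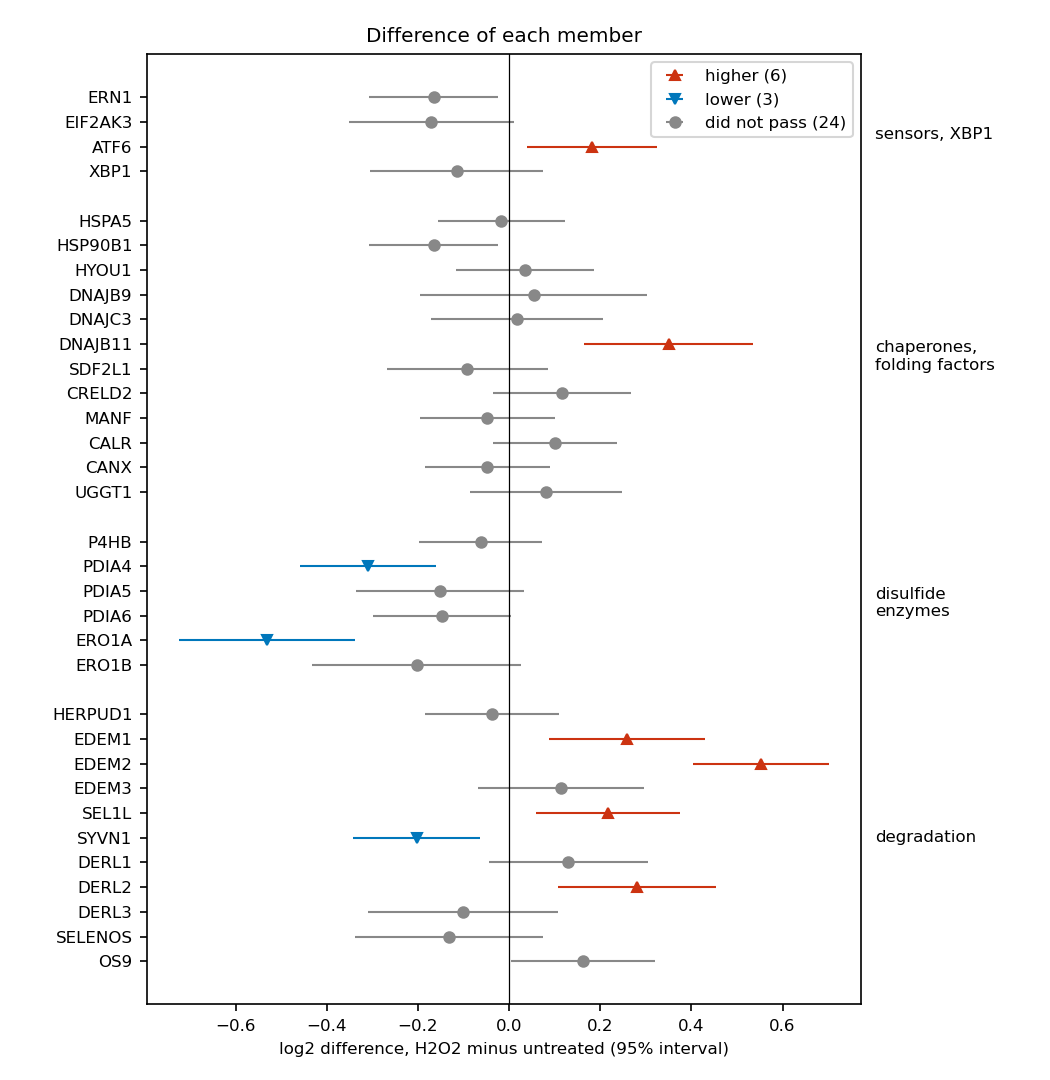
The log2 difference, H2O2 minus untreated, of each member with its 95% interval from the limma fit (not adjusted for multiple tests); upward triangles passed as higher (6), downward triangles as lower (3), circles did not pass (24). Most intervals of the chaperones span 0, and those of the disulfide enzymes lie mostly to the left.

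Many genes of the unfolded protein response are known to carry an ER stress element in the promoter, the site at which ATF6 and the spliced form of XBP1 act together with the CCAAT-binding factor NF-Y. The rule that chose the members did not use these sites. The element is known from genes of this response, so the members' shares below are a description and not an independent result. The letters searched were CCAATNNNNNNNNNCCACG (ERSE) and ATTGGNCCACG (ERSE-II), on both strands, in RefSeq windows of assembly GRCh38.p14 that run from 250 bases before to 50 bases after a gene's start. Windows were found for 31 of the 34 members, 37 in all because some genes have several starts. Of the 31 members, 8 held an exact ERSE, 3 others an exact ERSE-II and 20 neither. Over the whole table, 0.0769% of the 35116 windows held an ERSE and 0.0541% an ERSE-II, against 27.0% and 8.11% of the members' windows. The 8 members made up 8 of the 25 genes that hold an ERSE at all, and the 3 made up 3 of the 19 with an ERSE-II. The shorter CCACG alone, which is part of both, stood in 73.0% of the members' windows and 38.1% of all. A match is a description of letters, not a shown binding site, and the lack of one says nothing of the factor.

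The matched sites are given below 5′ to 3′ in the direction of the motif, with the 5 fixed letters at each end in capitals and the spacer in lower case. The strand is that of the printed letters.
HSPA5, chr9:125241391-125241409, minus strand: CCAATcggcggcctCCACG
HSP90B1, chr12:103930216-103930234, plus strand: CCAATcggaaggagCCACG
HSP90B1, chr12:103930321-103930339, minus strand: CCAATcgcgccgcaCCACG
CALR, chr19:12938384-12938402, minus strand: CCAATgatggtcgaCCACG
CANX, chr5:179698778-179698796, plus strand: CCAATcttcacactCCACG
CRELD2, chr22:49918554-49918572, minus strand: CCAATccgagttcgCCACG
PDIA6, chr2:10812853-10812871, minus strand: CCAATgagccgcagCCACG
ERO1B, chr1:236282183-236282201, plus strand: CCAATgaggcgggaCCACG
XBP1, chr22:28800603-28800621, minus strand: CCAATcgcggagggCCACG
HYOU1, chr11:119057274-119057284, plus strand: ATTGGaCCACG
HYOU1, chr11:119057380-119057390, plus strand: ATTGGaCCACG
SDF2L1, chr22:21642114-21642124, minus strand: ATTGGtCCACG
HERPUD1, chr16:56932025-56932035, plus strand: ATTGGgCCACG

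Measured from a listed start, the site lay 66 to 48 bases before that of HSPA5, 52 to 34 before that of XBP1 and 117 to 107 before that of HERPUD1. The site of CANX is a single one that falls into 3 windows of that gene. The 120 bases before the start of HSPA5 (GRCh38.p14, chr9:125241344-125241463, minus strand) show the exact ERSE match in its surroundings, with its fixed letters in capitals. The AT-rich tatataa lies close to the start. Only exact matches were searched, so near matches stand unmarked.
HSPA5 promoter: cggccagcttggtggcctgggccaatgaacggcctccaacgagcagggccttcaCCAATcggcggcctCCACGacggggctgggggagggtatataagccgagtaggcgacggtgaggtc

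None of the 11 members with an exact ERSE or ERSE-II passed the limma test, 0 higher and 0 lower, beside 19.2% and 14.8% of all genes. At an unadjusted limma p under 0.05 the count was 1, HSP90B1, beside 7694 of all 18404 genes. Their differences ran from -0.20 (ERO1B) to 0.12 (CRELD2), with a median of -0.048 and 3 of 11 above 0. Over all genes 8294 of 18404 lay above 0. With trended and robust variances 2 of the 11 passed, HSP90B1 and PDIA6, both lower. The 9 called members all came from the 20 whose windows hold neither sequence, 6 higher and 3 lower. No test of that split was made. Of the 25 measured genes outside the list with either sequence, 6 were higher and 7 lower.

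**Figure D3:**
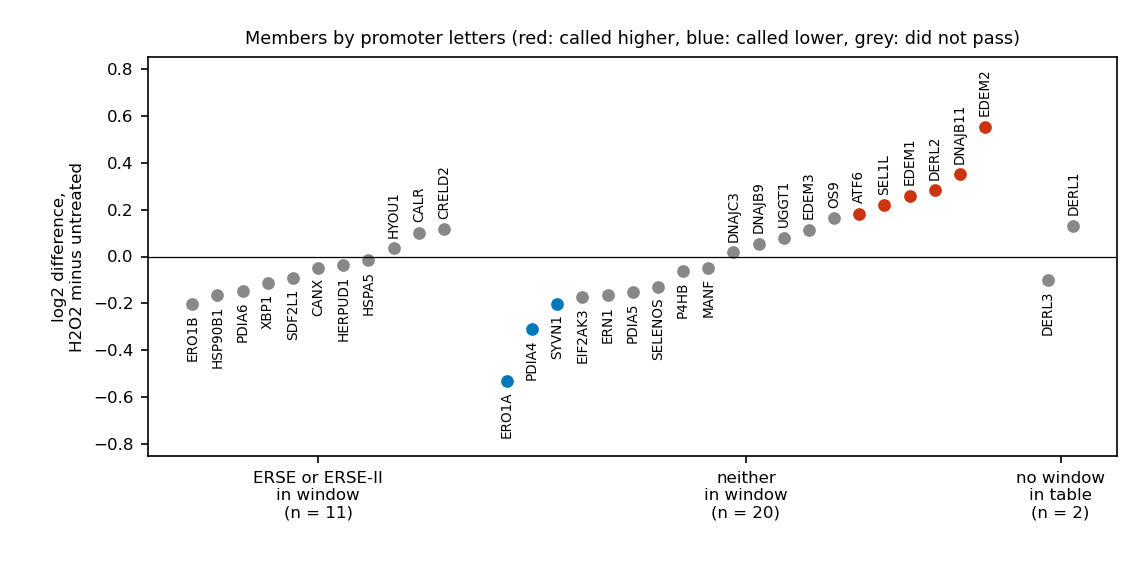
The log2 difference, H2O2 minus untreated, of each member, sorted within those with an exact ERSE or ERSE-II in a promoter window (11), those with neither (20) and those with no window in the table (2). The 11 on the left are all grey, that is, did not pass, and the coloured points all stand in the middle.

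The sensors and their transcription factors came first in the pathway. ATF6, which is cut in the Golgi to release a transcription factor, was the member of this class that passed. It read 10.16, 10.08, 10.21 and 10.06 in untreated cells and 10.34, 10.34, 10.23 and 10.33 after H2O2, without overlap. The rise was 1.13-fold (0.18 ± 0.066, limma adjusted p = 0.047), close to the threshold. It was lost without untreated replicate 1, 2 or 4 or H2O2 replicate 1, 2 or 4, at limma adjusted p = 0.0787 to 0.121 and differences of 0.16 to 0.19.

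ERN1, which encodes IRE1, the kinase and endonuclease that splices XBP1 RNA, lay lower without overlap. Its values were 8.71, 8.55, 8.63 and 8.61 against 8.48, 8.46, 8.52 and 8.38 (-0.17 ± 0.066). That did not pass (limma adjusted p = 0.0697), except without H2O2 replicate 3 (-0.18, adjusted p = 0.0495), after quantile normalization and with dim genes left out. EIF2AK3, which encodes PERK, the kinase that slows translation, gave -0.17 ± 0.084 (limma adjusted p = 0.142) with overlapping groups. It passed as lower without H2O2 replicate 2, at -0.24 and adjusted p = 0.0432, since that array (8.87) lay among the untreated ones.

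XBP1, the transcription factor that IRE1 activates, read 11.43, 11.45, 11.36 and 11.35 in untreated cells and 11.42, 11.44, 11.22 and 11.04 after H2O2. H2O2 replicates 1 and 2 lay among the untreated arrays and replicates 3 and 4 below them. The difference of -0.11 ± 0.088 did not pass (limma adjusted p = 0.362; 95% interval -0.30 to 0.075). The table gives a single value for XBP1, so spliced and unspliced RNA, like the cleavage of ATF6 or the phosphorylation of PERK, cannot be read from it.

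HSPA5 encodes BiP, the main ER chaperone and the usual readout of ER stress. It read 11.86, 11.83, 11.91 and 11.77 in untreated cells and 11.81, 11.90, 11.78 and 11.80 after H2O2. The groups overlapped fully, at a difference of -0.017 ± 0.065 (limma adjusted p = 0.879). Its 95% interval, -0.16 to 0.12, leaves out a rise of the size seen for EDEM2. HSP90B1, the ER form of HSP90, lay lower on every H2O2 array (12.43, 12.50, 12.39 and 12.39 against 12.57, 12.55, 12.70 and 12.56). At -0.17 ± 0.066 it did not pass (limma adjusted p = 0.0694), though it did with trended and robust variances (adjusted p = 0.00692) and with dim genes left out (adjusted p = 0.0469).

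DNAJB11, a J-domain cofactor of BiP, was the chaperone that rose. It read 9.26, 9.43, 9.39 and 9.13 in untreated cells and 9.75, 9.76, 9.49 and 9.62 after H2O2. The groups did not overlap, and the rise was 1.27-fold (0.35 ± 0.086, limma adjusted p = 0.00565). It passed under each of the 15 alternative settings tried. The other BiP cofactors did not pass: DNAJB9 differed by 0.055 ± 0.12, DNAJC3 by 0.018 ± 0.087 and HYOU1, a nucleotide exchange factor, by 0.035 ± 0.070. DNAJB9 was the most scattered of the 4, from 8.43 to 8.97 on the H2O2 arrays.

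The lectin chaperones hold glycoproteins while they fold. CALR, calreticulin, was a little higher on every H2O2 array (11.92, 11.93, 11.87 and 11.91 against 11.77, 11.85, 11.87 and 11.73), at 0.10 ± 0.063 (limma adjusted p = 0.251). CANX, its membrane-bound relative calnexin, differed by -0.048 ± 0.064, and UGGT1, which re-tags unfolded glycoproteins for another round, by 0.080 ± 0.077. SDF2L1 (-0.091 ± 0.082), CRELD2 (0.12 ± 0.070) and MANF (-0.047 ± 0.068), small ER proteins that are induced by ER stress, did not pass either. Over the 11 members of the class that did not pass, the 95% intervals lay between -0.31, for HSP90B1, and 0.30, for DNAJB9.

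Disulfide enzymes oxidise and rearrange cysteine pairs. PDIA4 (ERp72) read 11.47, 11.46, 11.61 and 11.39 in untreated cells and 11.13, 11.27, 11.15 and 11.15 after H2O2. Every H2O2 array lay lower, a 1.24-fold fall (-0.31 ± 0.069, limma adjusted p = 0.0031). Like ERO1A, it passed under each of the 15 alternative settings tried. The remaining isomerases lay below 0 without passing: PDIA6 at -0.15 ± 0.070 (limma adjusted p = 0.131), PDIA5 at -0.15 ± 0.086 (adjusted p = 0.206) and P4HB, the archetypal protein disulfide isomerase, at -0.062 ± 0.063 (adjusted p = 0.5). PDIA6 passed as lower with trended and robust variances (adjusted p = 0.0362). For P4HB the mean over its 2 probe sets gave -0.11, which did not pass (limma adjusted p = 0.207).

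ERO1B, the second ER oxidase, lay near the array median (6.87, 6.78, 6.91 and 6.74 untreated, 6.74, 6.92, 6.41 and 6.42 after H2O2), a level not shown to be above background. Its difference of -0.20 ± 0.11 did not pass (limma adjusted p = 0.171). Without H2O2 replicate 2, the highest of the 8 arrays, it passed at -0.30 (adjusted p = 0.023).

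Of the 6 members called higher, 4 were in the degradation class. That is 36.4% of its 11 genes, beside 19.2% of all genes. Its groups did not overlap in 27.3% of cases, beside 33.7% of all genes. EDEM1, a relative of EDEM2 with a like role, read 8.21, 8.24, 8.44 and 8.19 in untreated cells and 8.55, 8.61, 8.37 and 8.60 after H2O2. H2O2 replicate 3 fell below untreated replicate 3, so the groups overlapped, and EDEM1 rose by 0.26 ± 0.080 (limma adjusted p = 0.0217). The call was lost without untreated replicate 1, 2 or 4 or H2O2 replicate 1, 2 or 4, at adjusted p = 0.0514 to 0.0676 and differences of 0.23 to 0.25. EDEM3, the third member of that family, gave 0.11 ± 0.085 (limma adjusted p = 0.344). It passed without untreated replicate 3, its highest untreated array (0.19, adjusted p = 0.0433).

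DERL2, a derlin of the channel through which substrates leave the ER, read 9.60, 9.71, 9.45 and 9.47 in untreated cells and 9.82, 9.98, 9.71 and 9.85 after H2O2. All H2O2 arrays lay above the untreated ones, though replicate 3 by little, and the rise was 1.22-fold (0.28 ± 0.080, limma adjusted p = 0.0143). It passed under each of the 15 alternatives. DERL1 gave 0.13 ± 0.081 (limma adjusted p = 0.251). DERL3 gave -0.10 ± 0.097 (adjusted p = 0.48), with 1 H2O2 array, replicate 3, at 7.22 and the others at 6.81 to 6.83. Without that array DERL3 passed as lower (-0.20, adjusted p = 0.0486), at a level near the array median.

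SEL1L and SYVN1 form the core of the main ubiquitin ligase of the ER membrane, SYVN1 (HRD1) being the ligase and SEL1L its adaptor. They were called in opposite directions. SEL1L read 9.51, 9.50, 9.69 and 9.45 in untreated cells and 9.69, 9.82, 9.68 and 9.83 after H2O2, with overlap (0.22 ± 0.073, limma adjusted p = 0.0341). SYVN1 read 9.55, 9.53, 9.53 and 9.45 against 9.26, 9.31, 9.41 and 9.26, without overlap (-0.20 ± 0.065, limma adjusted p = 0.0265). Both calls were close to the threshold. SEL1L was lost without untreated replicate 1, 2 or 4 or H2O2 replicate 2 or 4 (adjusted p = 0.0811 to 0.102, differences of 0.19 to 0.21). SYVN1 was lost without untreated replicate 1 or 2 or H2O2 replicate 1, 2 or 4 (adjusted p = 0.0576 to 0.0829, differences of -0.20 to -0.19).

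Other factors of the route did not pass. HERPUD1, an ER stress-induced scaffold of the same ligase, differed by -0.037 ± 0.068 (limma adjusted p = 0.733). SELENOS, a selenoprotein that recruits the extraction ATPase VCP, gave -0.13 ± 0.096 (adjusted p = 0.336). OS9, a lectin that delivers substrates to SEL1L, gave 0.16 ± 0.073 (adjusted p = 0.108). OS9 passed as higher without untreated replicate 3 (0.22, adjusted p = 0.0226) and with trended and robust variances (adjusted p = 0.0466).

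Whether related members moved unequally was asked by subtracting their log2 values within each array and comparing these differences between groups. An exact two-sided permutation test was used on 6 pairs, and the smallest p that 4 against 4 arrays allow is 0.0286. ERO1A minus ERO1B went from 4.28 ± 0.12 (SD, n = 4) to 3.96 ± 0.16, a change of -0.33 with no overlap (exact p = 0.0286, 0.0429 adjusted over the 6 pairs). ERO1B lay near the array median, so its part in that change is not shown to be above background. EDEM2 minus EDEM3 changed by 0.44 and EDEM1 minus EDEM2 by -0.29, with the same exact p and adjusted value, so the difference of EDEM2 was larger than that of either relative. CALR minus CANX changed by 0.15, from -0.35 ± 0.046 to -0.20 ± 0.031 (SD, n = 4), again with the smallest p possible (exact p = 0.0286). EDEM1 minus EDEM3 changed by 0.15 (exact p = 0.0857, the same after adjustment) and DERL1 minus DERL2 by -0.15 (exact p = 0.0571, adjusted 0.0686), and these did not pass. The EDEM pairs share genes, so the 6 tests are not independent. Each pair that passed had the smallest p possible, and its adjusted value depends on how many pairs reached that p.

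**Figure D4:**
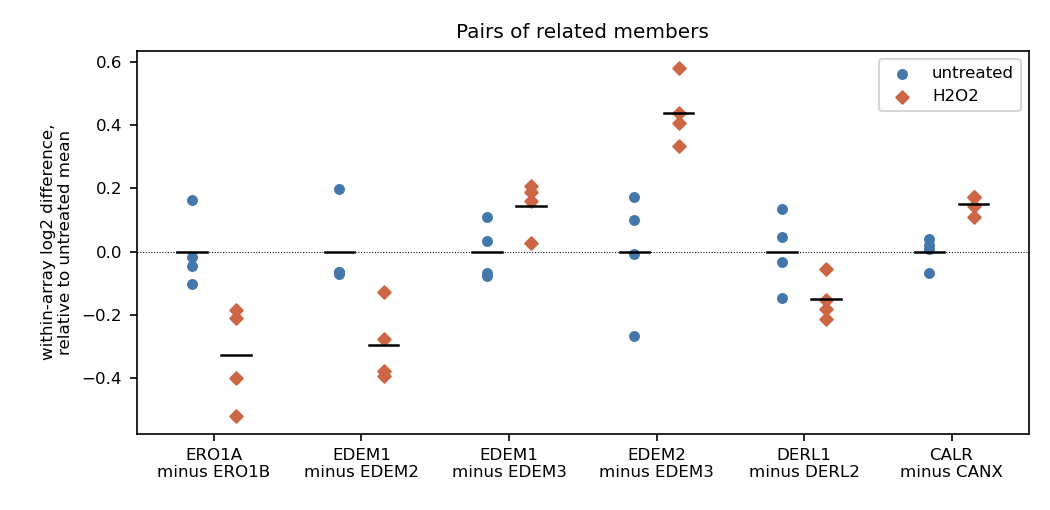
The within-array log2 difference of 6 pairs of related members, relative to the mean of the untreated arrays, with 1 point per array (circles untreated, diamonds H2O2) and bars at the group means. The groups stand apart for ERO1A minus ERO1B, EDEM1 minus EDEM2, EDEM2 minus EDEM3 and CALR minus CANX.

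Other genes of the pathway were read from 9 lists, in which 137 of 146 genes had a value. Of these 33 (24.1%) were higher and 20 (14.6%) lower, beside 19.2% and 14.8% of all genes. Among the other ER stress regulators 2 of 13 rose and 2 fell (median 0.079). CREB3 and CREB3L2 are membrane-bound transcription factors related to ATF6 in how they are released, and they were called in opposite directions, at 0.51 ± 0.077 and -0.49 ± 0.061 (limma adjusted p = 0.000136 and 2.63e-05). So were subunits of NF-Y, with NFYA at 0.26 ± 0.072 and NFYB at -0.55 ± 0.11, the latter from 6.92 ± 0.19 (SD, n = 4), at the array median.

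In the PERK and ATF4 branch 5 of 12 rose and 2 fell (median -0.043). ATF4, the transcription factor translated when PERK is active, fell by 0.46 ± 0.071 on the log2 scale, and TRIB3 by 0.40 ± 0.078. These values are RNA, and the translation of ATF4 cannot be read from them. PPP1R15A, a phosphatase subunit that ends the translational block, rose by 0.99 ± 0.068, and the stress sensor SESN2 by 0.88 ± 0.069.

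Among the other ER chaperones and glycan processing genes 6 of 19 rose and 4 fell (median -0.0015). SDF2, the relative of SDF2L1, rose by 0.66 ± 0.076 and the prolyl isomerase FKBP7 by 0.59 ± 0.085. The isomerase FKBP14 fell by 0.67 ± 0.11 and the calnexin relative CLGN by 0.42 ± 0.13. The call of CLGN was lost without untreated replicate 1 or 3 or H2O2 replicate 4 (limma adjusted p = 0.0622 to 0.0745). The list had 2 lower without untreated replicate 3 or H2O2 replicate 4, and with all probe sets.

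Of the other thioredoxin-fold and redox enzymes of the ER 7 of 18 (38.9%) rose and 1 (5.56%) fell (median 0.11). Over all genes the shares were 19.2% and 14.8%. In the disulfide class 0 of 6 rose, a count too small to set against these shares. The difference between those lists was not tested. ERP27, a relative of protein disulfide isomerase without its redox site, was 2.70-fold higher, at 9.21 ± 0.14 against 10.64 ± 0.18 (SD, n = 4; 1.43 ± 0.097, limma adjusted p = 9.33e-08). GPX8, an ER peroxidase, rose by 0.93 ± 0.099 from a level below the array median. VKORC1, which recycles vitamin K in the ER membrane, fell by 0.23 ± 0.066, a call lost without H2O2 replicate 4 (adjusted p = 0.0653), which left 0 of the list lower. Without untreated replicate 4, and with quantile normalization, dim genes left out or trended and robust variances, 2 were lower.

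Among the other ER-associated degradation factors 5 of 21 were higher and 3 lower (median 0.10), and without untreated replicate 1 the higher numbered 3. UFD1, a cofactor of VCP, rose by 0.58 ± 0.12 and the ligase RNF185 by 0.35 ± 0.090. The lectin ERLEC1 fell by 0.27 ± 0.078 and the deglycosylating enzyme NGLY1 by 0.23 ± 0.067.

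The translocon and signal peptidase list, through which proteins enter the ER, had 0 of 18 higher and 4 lower (median -0.091), led by the signal peptidase subunit SEC11C (-0.54 ± 0.11) and SEC63 (-0.31 ± 0.073). Some of the list passed as higher in other settings, 2 without H2O2 replicate 3 and 1 without untreated replicate 2, with dim genes left out or with trended and robust variances. For oligosaccharyltransferase, which adds the sugar chains, 4 of 11 were higher and 1 lower (median 0.025), with STT3B at 0.31 ± 0.064, KRTCAP2 at 0.28 ± 0.075 and OSTC at -0.28 ± 0.071. The higher numbered 2 with the replicate block, with median centring, and without untreated replicate 2 or 4 or H2O2 replicate 1 or 4. ER exit and retrieval genes rose in 3 and fell in 3 of 18 cases (median -0.046). KDELR3, a receptor that returns escaped chaperones, rose by 0.49 ± 0.069, and the coat protein SEC24C by 0.24 ± 0.068. The cargo receptor LMAN1 fell by 0.45 ± 0.073 and the coat protein SEC24D by 0.43 ± 0.062. The call of SEC24C was lost without untreated replicate 1 or 4 (adjusted p = 0.0502 and 0.0512), and the list then had 1 higher. Of 7 ER-phagy receptors, which send pieces of ER to the lysosome, 1 rose, CALCOCO1 (0.46 ± 0.087), and 0 fell. Without untreated replicate 3 the higher numbered 3, and with trended and robust variances 2. Without untreated replicate 2 or H2O2 replicate 4, and with quantile normalization, median centring or dim genes left out, 1 was lower.

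**Figure D5:**
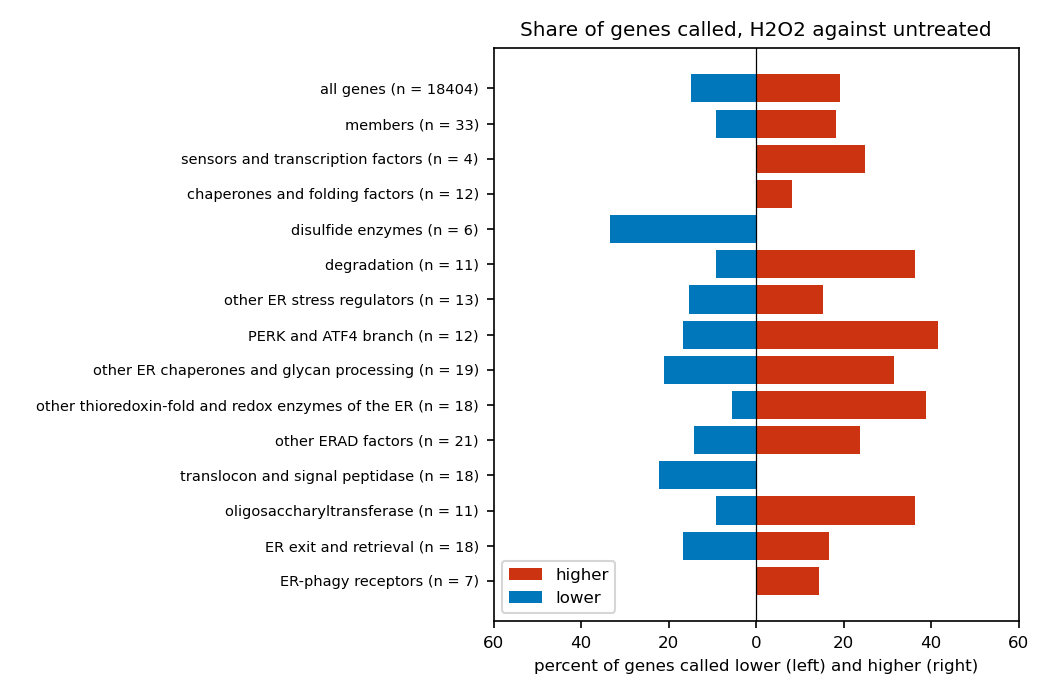
Percent of genes called higher (right) and lower (left) after H2O2 over all genes, the 33 members, their classes and 9 lists of other ER genes, with the number of genes measured in brackets. The chaperones and folding factors have short bars beside those of all genes, and in this fit the disulfide enzymes and the translocon list have bars to the left alone; in other settings 1 or 2 translocon genes passed as higher.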

How the data were processed

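RNA of 8 HepG2 cultures was read on single-channel arrays. The authors deposited log2 values per probe set. The sources used here do not state how probes were summarized, background-corrected or normalized, and per the submitters' processing notes limma was used, with no role stated. Of 32321 probe sets, 19158 carry 1 gene symbol in the platform annotation, 1388 several and 11775 none. Single-symbol probe sets gave 18404 genes, taking for each the probe set with the highest mean over all arrays. No 2 arrays shared more than 0.00619% identical values.

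H2O2 and untreated cultures were compared with limma 3.58.1 (R 4.3.3): 1 mean per group, empirical Bayes moderation, Benjamini-Hochberg adjustment over all genes, call at adjusted p under 0.05. The fit was also run on simulated data with known changes, as a check of the procedure alone, and no result here rests on it. Motifs, pairs and figures used Python 3.11.15, pandas 2.3.3, numpy 2.4.6, scipy 1.17.1 and matplotlib 3.10.9. The text names all members and, from each list, at most 2 called rises and 2 called falls, the largest by absolute difference. Members, classes and lists were chosen with earlier results of these data known. Protein sequences were not used here.

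Same-numbered replicates of both groups deviated with correlations of -0.25 to 0.094, so numbers were not treated as pairs. Alternatives were the replicate number as a block, quantile normalization, median centring, leaving out genes at or below the 25th percentile of the mean, trended and robust variances, the mean over probe sets, all probe sets, leaving out each array and, for motifs, the bases before the start alone.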

Additional observations from a re-analysis of the deposited data

Results flagged for a closer look

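In a group of 4 arrays, an array was set apart when its gap to the nearest other array took a share of the group's range above Dixon's 95% critical value for 4 samples. This was so in 12 of 136 groups tested, and chance alone sets apart about 1 in 20. Ratio and log2 value are given for each.

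Among the members, PDIA6 on H2O2 replicate 2 had the largest gap (0.953 of the range), at 11.94 against 11.77 to 11.78. PDIA4 stood high on the same array (0.837, 11.27). DERL3 stood high on H2O2 replicate 3 (0.945, 7.22) and ATF6 stood low there (0.836, 10.23). On untreated replicate 3, HSP90B1 stood high (0.849, 12.70), DNAJB9 low (0.914, 8.41) and EDEM1 minus EDEM2 high (0.973, -1.33 against -1.60 to -1.59). P4HB stood low on untreated replicate 4 (0.888, 12.78).

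Among the other pathway genes, SEC63 stood high on H2O2 replicate 2 (0.956, 10.85), SESN2 high on H2O2 replicate 1 (0.884, 9.16), OSTC low on H2O2 replicate 1 (0.846, 11.48) and KRTCAP2 low on H2O2 replicate 4 (0.928, 8.58).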

How the results depend on the processing

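Of the 9 called members, 5 were called under all 15 alternatives: EDEM2, DERL2 and DNAJB11 as higher, PDIA4 and ERO1A as lower. The other 4, ATF6, EDEM1, SEL1L and SYVN1, were lost under some of them without a change of sign. Of the 24 members that did not pass, 16 never passed. With the replicate number as a block, 3 members were higher, 0 of them sensors and 2 in the degradation class, where 0 were lower; ATF6, EDEM1, SEL1L and SYVN1 were lost, and 1 of 8 arrays correlated best with its own number. With all probe sets, 3 members were higher (0 sensors, 2 degradation factors), and with median centring 0 sensors were higher. With dim genes left out, 5 members were lower (1 sensor, 1 chaperone, 1 with an ERSE). With trended and robust variances 5 were lower (1 chaperone, 2 with an ERSE), and with quantile normalization 1 sensor was lower. The cause was not tested. Leaving out 1 array gave 3 to 8 members higher and 2 to 5 lower. By class this was 0 to 1 sensors higher and 0 to 1 lower, 2 to 6 degradation factors higher and 0 to 2 lower, and 0 to 1 members with an ERSE or ERSE-II lower. The median over all genes moved by less than 0.1 under each setting. All 6 pair changes kept their sign under the 10 alternatives tried for them, but with 3 arrays in a group no exact p can pass. The number of arrays limits how small a difference can be called.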

Other observations

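Outside the members, 33 genes hold an exact ERSE or ERSE-II in a promoter window, and 25 of them had a value. Some have known roles in the ER, and they were named after their values were seen. FICD, which modifies BiP, was higher (0.29 ± 0.079, limma adjusted p = 0.0108). SERP1, which stabilizes membrane proteins during ER stress, gave -0.17 ± 0.071 (adjusted p = 0.0919). ALG12, a mannosyltransferase of glycan assembly, gave 0.11 ± 0.072 (adjusted p = 0.288), and NUCB1, a calcium-binding protein of the Golgi, 0.071 ± 0.066 (adjusted p = 0.461). The largest differences among the 25 were those of TRIM5, an antiviral factor (0.89 ± 0.068, adjusted p = 3.04e-07), and SHCBP1, a protein of dividing cells (-0.80 ± 0.11, adjusted p = 4.81e-05).

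Within a group, arrays ordered many members alike. Of the 33 members, 23 were highest on H2O2 replicate 2 and 18 lowest on H2O2 replicate 3. Over all genes these shares were 26.5% and 31.0%. Of the 23 members with a mean above 9 the counts were 16 and 12, beside 42.0% and 46.7% of the 4175 genes at that level. Among untreated arrays, 20 of 33 members were lowest on replicate 4, as were 28.3% of all genes. Above 9 this was so for 15 of 23 members and 42.3% of the genes. All values of an array come from the same culture, and no test was made.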
